A study of Mus musculus with 6 samples.

Results

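Aminoacyl-tRNA synthetases join each amino acid to its transfer RNA, the step that makes the genetic code readable by the ribosome. Their transcripts were followed in invariant natural killer T (iNKT) cells from mouse spleen. The set held the 36 genes of a named list that were found by symbol among the 48709 genes of the deposited expression table, 20 for enzymes of the cytosol and 16 for enzymes of mitochondria, where Lars2 charges the leucine tRNA. The labels describe 6 samples of flow-sorted cells in the resting state, 3 WT and 3 Gpx4 cKO. Gpx4 encodes a selenoenzyme that removes lipid peroxides from membranes. The labels name no strain, age, sex or Cre driver, and no label ties a sample to an animal of its own.

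The table holds 6 libraries numbered 18 to 23, and 0 of the 6 carry a name found in the labels. No genotype could be assigned to any library, no WT and Gpx4 cKO groups were compared, and each library is reported by its number. Exon reads per library ranged from 903524 in library 21 to 10122187 in library 19, so that a gene without a read could still lie at up to 0.282 to 3.62 CPM (exon reads scaled to 1000000 reads of normalized library size). The targeted gene, Gpx4, was read in every library, at 3.20 to 31.3 CPM, and was not used to sort them. All 9 iNKT markers were present, and their sum lay between 3438 CPM (library 23) and 4921 CPM (library 19). Of the markers of other cells, B cell transcripts summed to 1005 (library 18) to 5290 CPM (library 23), mostly Igkc, and plasma cell transcripts to 179 to 1245 CPM. Erythroid transcripts summed to 4.34 to 289 CPM, again highest in library 23. The 6 myeloid markers in the table summed to 4.43 to 7.24 CPM with S100a8 at 0. Of the markers of other T cells, Cd8a reached 0.185 CPM, Cd8b1 2.77 CPM and Foxp3 6.63 to 12.1 CPM, with a sum of 7.23 to 13.7 CPM. RNA from fewer cells of a type and less RNA per cell cannot be told apart in such bulk libraries.

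As background, most cytosolic synthetases and their mitochondrial counterparts are separate nuclear genes. Gars and Kars are exceptions that serve both compartments, and Eprs charges both glutamate and proline tRNAs. The products of Dars, Eprs, Iars, Kars, Lars, Mars, Qars and Rars sit together on scaffold proteins in the multisynthetase complex. When tRNAs go uncharged, the kinase GCN2 (Eif2ak4) raises translation of the transcription factor ATF4, whose known targets include many cytosolic synthetase genes.

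ATF4 acts with C/EBP factors at a composite element with the letters TTGCATCA, and this element was searched on both strands in RefSeq promoters of build GRCm38.p6 (300 bases, from 250 before to 50 after the transcript start). Promoter entries were matched for 27 of the 36 members. The letters occurred in 4 of these 27 members, or 14.8%, and in 4 of their 28 promoter entries. In the whole reference they occurred in 294 of 32851 promoter entries, or 0.895%, a share of entries and not of genes. The 4 members were Aars, Iars, Tars and Yars, which charge alanine, isoleucine, threonine and tyrosine tRNAs in the cytosol. They are shown because their levels are set beside each other below. Each line gives 150 bases, from 130 before to 20 after the start, 5′ to 3′ on the gene's strand, with the element in capitals.
Aars: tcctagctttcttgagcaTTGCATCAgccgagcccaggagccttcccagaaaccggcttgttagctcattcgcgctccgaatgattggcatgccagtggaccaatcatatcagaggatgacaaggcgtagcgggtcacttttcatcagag
Iars: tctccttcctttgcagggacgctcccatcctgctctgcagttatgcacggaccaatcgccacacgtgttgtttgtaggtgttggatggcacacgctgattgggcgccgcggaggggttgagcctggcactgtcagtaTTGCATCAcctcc
Tars: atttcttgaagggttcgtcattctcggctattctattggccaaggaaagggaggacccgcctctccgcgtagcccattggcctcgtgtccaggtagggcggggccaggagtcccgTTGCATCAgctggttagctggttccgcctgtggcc
Yars: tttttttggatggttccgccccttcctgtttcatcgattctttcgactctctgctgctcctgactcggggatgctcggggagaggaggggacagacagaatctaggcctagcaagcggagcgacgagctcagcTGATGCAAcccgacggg
The Aars window is chr8:111033712-111033861 on the plus strand, and the element lies at -112 to -105 from the start. The Iars window is chr13:49682000-49682149 on the plus strand, with the element at 8 to 15. The Tars window is chr15:11399639-11399788 on the minus strand, with the element at -15 to -8. The Yars window is chr4:129189773-129189922 on the plus strand, and there the letters lie on the opposite strand, at 4 to 11. A match of letters is a description and was not tested as a binding site.

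Cytosolic synthetases were the better expressed of the 2 kinds, apart from Lars2. Their median level was 70.3 CPM, against 13.7 CPM for the 15 other mitochondrial enzymes. Per length, in the authors' RPKM (exon reads scaled to exon length and mapped reads), the medians were 8.64 and 1.87, with 4.68 over all 9042 genes that had at least 200 reads in total. On the RPKM scale Tars was highest among the cytosolic enzymes with a median of 29.6, followed by Kars with 24.1 and Nars, for asparagine, with 21.5. The lowest cytosolic medians were 2.12 for Cars, 2.58 for Yars and 2.74 for Farsa. Among the mitochondrial enzymes other than Lars2, medians ran from 0.435 for Aars2 to 4.11 for Iars2.

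**Figure D1:**
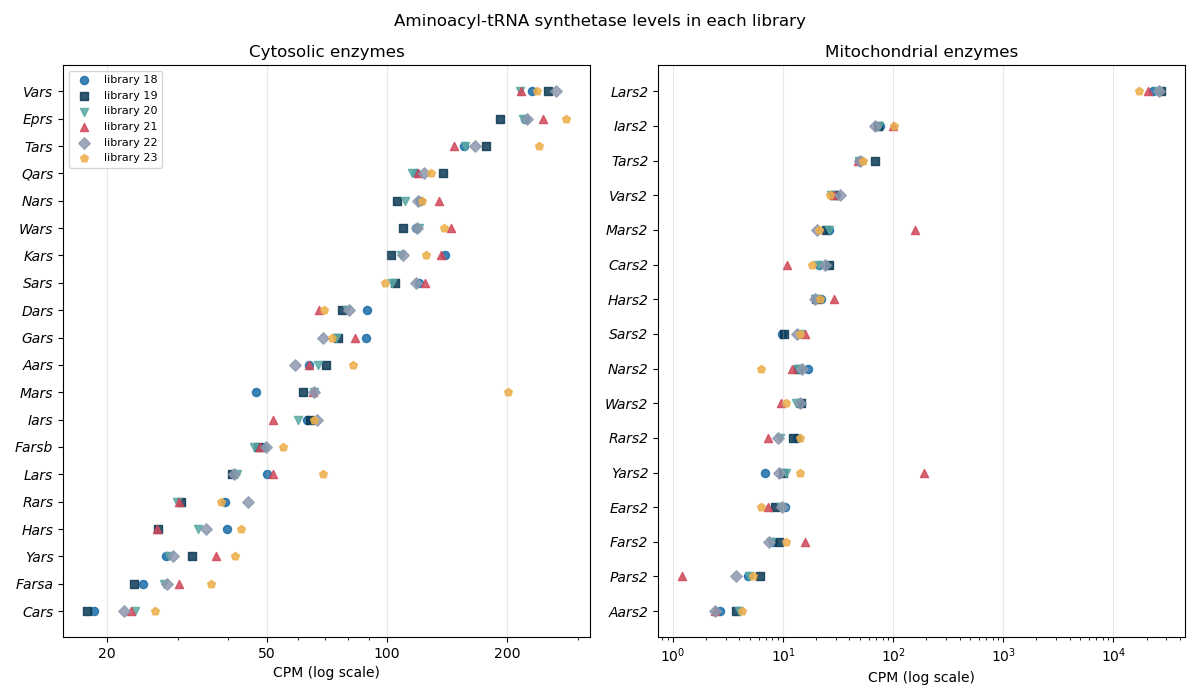
Level of each synthetase in each of the 6 libraries, in CPM on log axes, cytosolic enzymes on the left and mitochondrial enzymes on the right, ordered by median; each symbol is 1 library. Lars2 lies far to the right of every other enzyme, Mars is set apart in library 23 at 200.3 CPM, and Mars2 and Yars2 are set apart in library 21 at 159.3 and 190.7 CPM.

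For 13 amino acids both a cytosolic and a mitochondrial enzyme were among the members, and 9 of these pairs had the higher RPKM on the cytosolic side in all 6 libraries. The ratio of RPKM was largest at the median for tryptophan, with Wars at 13.0 to 25.9 times Wars2, and for asparagine, with Nars at 11.4 to 30.9 times Nars2. The valine pair was the steadiest, with Vars at 7.26 to 8.57 times Vars2. Cysteine enzymes were near parity: Cars over Cars2 ran from 0.671 to 2.09 and was above 1 in 3 of 6 libraries. Iars exceeded Iars2 in 5 of 6 libraries, and Yars exceeded Yars2 in 5 of 6, the exception being library 21 for both pairs. The leucine pair alone had the mitochondrial enzyme higher in all 6 libraries, with Lars at 0.00152 to 0.00409 of Lars2. That order holds for RPKM, and by reads that span an exon junction, given below, it was reversed in all 6 libraries.

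**Figure D2:**
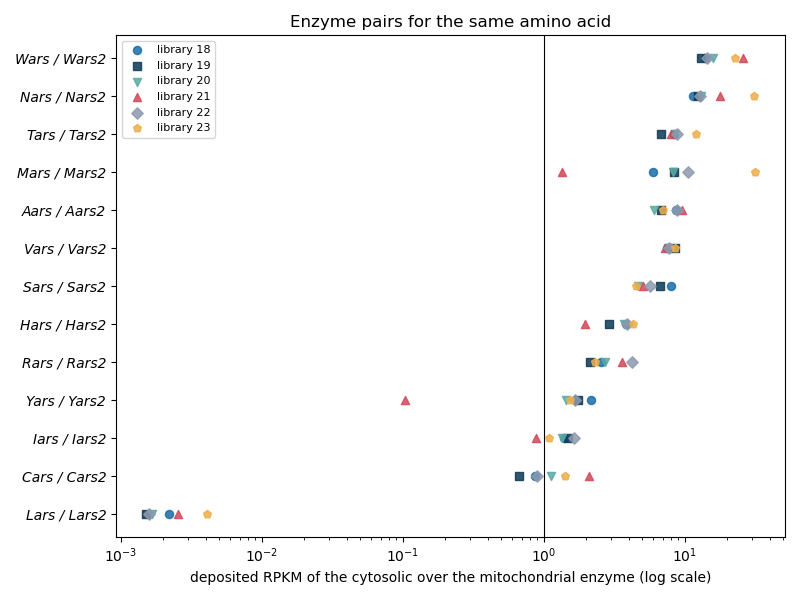
Deposited RPKM of the cytosolic enzyme divided by that of the mitochondrial enzyme for 13 amino acids, on a log axis; each symbol is 1 library and the vertical line marks equal RPKM. Points lie right of the line in all libraries for 9 pairs, and the leucine pair lies at 0.00152 to 0.00409.

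Lars2 was the most read gene of the whole table by median CPM. The deposited table places it at 123366940 to 123462664 of chromosome 9 (GRCm38, plus strand, ENSMUSG00000035202) and has 3881 exon bases there. Exon reads of Lars2 numbered 190342, 287679, 139952, 16980, 141664 and 32202 in libraries 18 to 23. They made up 1.68% to 2.84% of all exon reads of a library, and the pooled 808819 reads were 11.7 times the 69414 of the other 35 members together. The levels were 22932, 27086, 25445, 20490, 26150 and 16977 CPM in libraries 18 to 23. Library 19 was highest and library 23 lowest, with a ratio of 1.60 (95% interval 1.58 to 1.61, counting error only). Leaving out library 23 lowered that ratio to 1.32. The summed iNKT markers were also highest in library 19 and lowest in library 23, but single markers did not all follow the sum. Only Il2rb and Cxcr6 were highest in library 19. Cd3e, Trac, Cxcr6, Klrb1c and Tbx21 were lowest in library 23, and Zbtb16, Trav11, Il2rb and Gata3 were not. Zbtb16 was lowest in library 19, at 245 CPM, and had 280 CPM in library 23. The part of these markers in the levels of Lars2 was not tested. Deposited RPKM values were 2809, 3522, 2714, 2303, 3314 and 1994, with the same libraries at the ends and a ratio of 1.77. At least 99.98% of the reads were listed as uniquely placed in every library.

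The reads on Lars2 differed in kind from those on the other synthetases. Of its pooled exon reads, 678 spanned an exon junction, or 0.0838%, although the annotated transcript Lars2-201 has 21 exons. The median junction share was 81.7% for cytosolic members, 47.9% for the 15 other mitochondrial members and 47.8% over all tested genes. Apart from Mars2, which has a single exon, the lowest share among the other members was 23.2%, for Wars2. Among the 5165 genes with more than 1 exon and at least 1000 exon reads the median was 52.5% and the 5th percentile 8.61%. Only 12 of these 5165 had a share at or below that of Lars2, itself included, and they also held the long noncoding RNA Malat1 and Junb. Exon numbers were taken as deposited, and whether the main transcript of each of these genes is spliced was not looked at. Junb had 0% among 10897 exon reads.

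**Figure D3:**
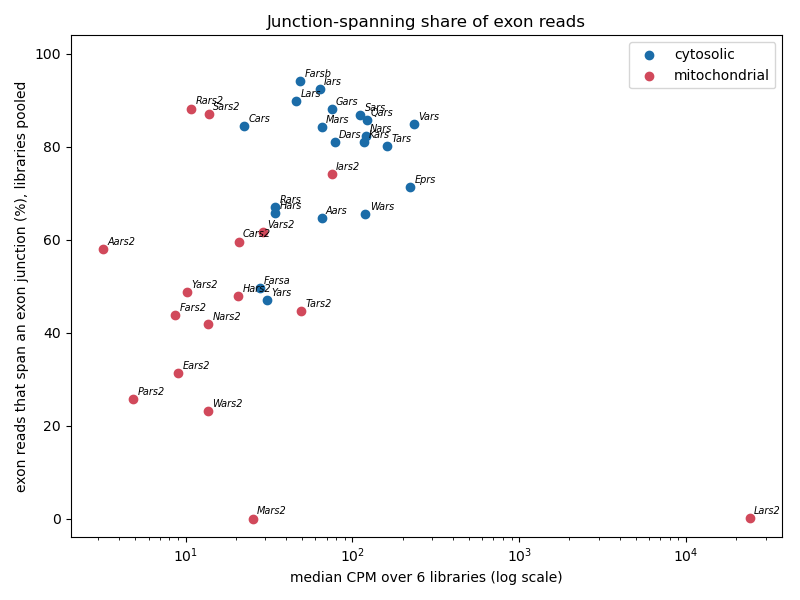
Share of exon reads that span an exon junction, in percent with the 6 libraries pooled, against median CPM on a log axis; each point is 1 synthetase gene. Lars2 stands alone at the lower right, with a share of 0.0838%, while Mars2, a gene of 1 exon, is at 0.

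Counted by junction reads, Lars2 lay in the middle of the family. It had 176, 229, 130, 11, 87 and 45 junction reads in libraries 18 to 23. As junction CPM, scaled to the sum of junction reads of each library, these were 44.5, 47.0, 50.6, 25.2, 33.2 and 48.1, which put Lars2 in place 19 of 36 by median, where it is in place 1 by exon reads. Libraries 21 and 22 were lowest on this measure, and library 23, lowest in exon reads, was among the highest. The ratio of highest to lowest was 2.01 (95% interval 1.08 to 4.12), an interval that the 11 reads of library 21 make wide. Lars, its cytosolic counterpart, had 78.7 (library 22) to 125 junction CPM (library 23) and lay above Lars2 in every library. Intron reads of Lars2 numbered 516, 635, 342, 56, 318 and 140, or 64.5, 66.7, 57.9, 66.7, 66.9 and 79.9 as intron CPM, scaled likewise to intron reads. Here library 23 was highest, at 1.38 times library 20 (1.12 to 1.68). Intron reads were 0.248% of all reads on the gene, against 42.1% at the median of the other mitochondrial members.

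**Figure D4:**
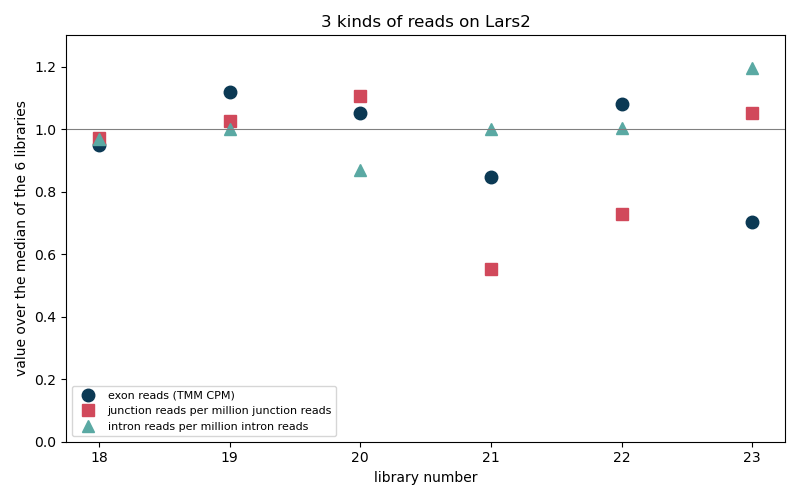
Exon reads (CPM), junction reads (junction CPM) and intron reads (intron CPM) on Lars2, each divided by its median over the 6 libraries, by library; the grey line marks the median. Library 23 is lowest for exon reads at 0.70 and highest for intron reads at 1.20, and library 21 is lowest for junction reads at 0.55.

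The deposited table does not say where along the gene the exon reads lie. The last exon of Lars2-201 covers 1166 of 3894 transcript bases, at 123461499 to 123462664, and 986 bases follow the stop codon. A search of the transcript against all GENCODE vM21 transcripts (blastn, listing the best match per gene) found 8 other genes, and all 8 matches lay after the stop codon. Of the 10 listed genes that overlap ribosomal RNA repeats, 6 are in the deposited table. Among the 10, 1 was matched: Gm15564, with 98.6% identity over 72 bases at 123462048 to 123462119. Only annotated transcripts were searched, so likeness to ribosomal RNA sequence without such an entry could not be found. Gm15564 itself had 114 exon reads (0.527 to 5.35 CPM) and 2228 intron reads, all libraries pooled. By exon reads the leading genes of that list were Gm26917 with 584 to 1329 CPM and Rn18s-rs5 with 184 to 665 CPM, both highest in library 23 and lowest in library 19. Most reads of the list are given as intron reads, among them all of Gm42418, which has no exons in the table. By these the list was lowest in library 19 but highest in library 21, with 2.59% and 5.19% of a library's intron reads, and library 23 had 3.95%. The part of ribosomal RNA in the reads on Lars2 was not tested. The next gene downstream, Limd1, had 39.5 to 53.2 CPM.

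Of 6388 genes with a median of at least 20 CPM, Tgfbrap1 followed the exon reads of Lars2 most closely over the 6 libraries: the ratio of the 2 levels varied 1.08-fold. Pip4k2c (1.09-fold), Crebrf (1.10-fold), Ivd (1.13-fold) and Trip4 (1.13-fold) came next, against a median of 1.81-fold over the genes compared. All 5 were lowest in library 23, as Lars2 was, which follows from the way they were picked and is no further result. Their junction shares of 30.2% to 53.7% were far above that of Lars2.

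The other members were compared across libraries with a chi-square test of exon reads against scaled library sizes, adjusted over all 9042 genes by the Benjamini-Hochberg method, which asks only whether libraries differ beyond counting error. Of the 36 members, 34 had the 200 reads required (not Aars2 or Pars2), and 24 of the 34 passed at 0.05. Over all genes 71.6% passed, so the members' share, 70.6%, was near the background. By compartment 17 of 20 cytosolic and 7 of 14 mitochondrial members passed; the latter had fewer reads. The 3 cytosolic members that missed the threshold were Cars (adjusted p = 0.054), Iars (0.554) and Farsb (0.804), and the mitochondrial ones that passed were Cars2, Iars2, Lars2, Mars2, Nars2, Tars2 and Yars2. The median ratio of highest to lowest library was 1.49 for the members and 1.58 for all tested genes. A range over 2-fold was found for 6 of 34, namely Mars, Cars2, Fars2, Mars2, Nars2 and Yars2, against 27.1% of all tested genes. Of the 34 members 12 were highest in library 23, against 22.1% of all tested genes, 8 in library 21, against 25.4%, and 0 in library 20, against 12.8%.

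**Figure D5:**
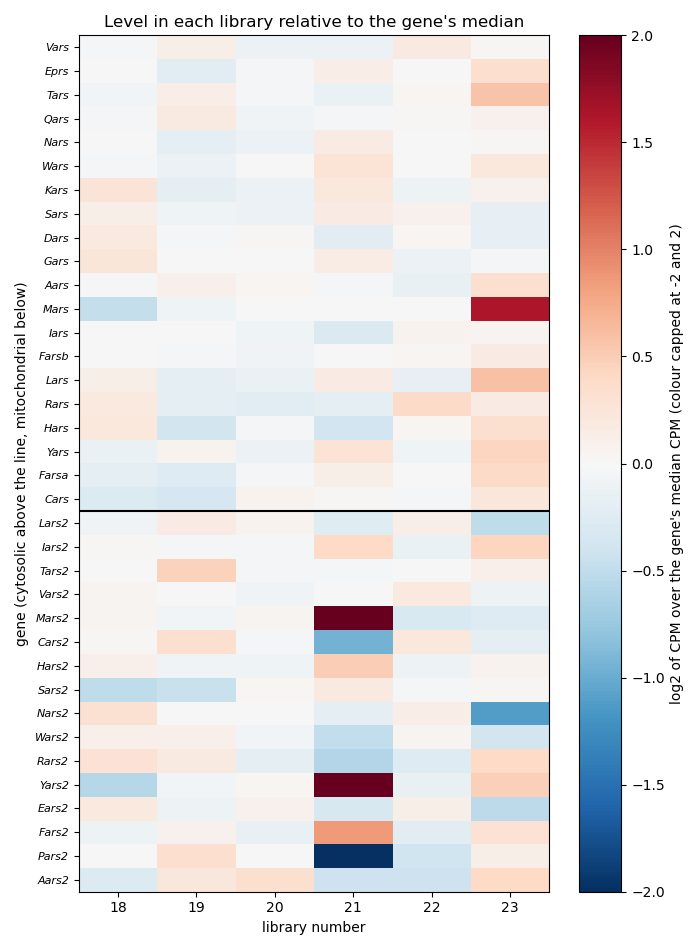
Level of each synthetase in each library relative to the gene's median over the 6 libraries, on a log2 scale with the colour capped at both ends, cytosolic genes above the line and mitochondrial genes below. Most squares are pale; the strongest are Mars in library 23, Mars2 and Yars2 in library 21, and Pars2, a gene with 163 reads in all, in library 21.

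As a sum, the cytosolic enzymes were highest in library 23. Their summed level was 1829, 1751, 1728, 1848, 1837 and 2172 CPM in libraries 18 to 23. The 95% interval of library 23, 2106 to 2239 CPM, lay above those of all other libraries, whose upper bounds reached 1942 CPM, and the ratio of highest to lowest was 1.26. Without Mars the sum was still highest in library 23, at 1972 CPM against 1662 to 1782 CPM, with a ratio of 1.19. Of the 20 cytosolic members 10 had their highest level in library 23, against 22.1% of all tested genes. The lowest level lay in library 19 for 7 of the 20, against 14% of all tested genes. The 8 enzymes of the multisynthetase complex, 7 of which passed the test against 71.6% of all genes, summed to 977 CPM in library 23 and to 707 to 768 CPM in the others. As given above, library 23 also held the highest sums of B cell, plasma cell and erythroid markers and the lowest of iNKT markers; their part in these levels was not tested.

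Mars, which charges the methionine tRNA for initiation and elongation alike, had the widest range of the cytosolic members (chromosome 10, 127296221 to 127311786, minus strand, ENSMUSG00000040354). Its levels were 47.0, 61.8, 65.6, 65.2, 65.7 and 200.3 CPM in libraries 18 to 23. Library 23 thus held 3.05 times the next highest level, and 4.26 times the lowest (95% interval 3.69 to 4.92, adjusted p = 7.19e-116). Without library 23 the range was 1.40-fold. A gap of at least 2 times to the next library, with at least 50 reads, was found for 2.05% of all tested genes and for 3 of the 34 members tested: Mars, Mars2 and Yars2. The excess was seen in junction reads too, which stood at 365.6 junction CPM in library 23 and 82.6 to 117 elsewhere. Intron reads were at 78.1 intron CPM there and 41.3 to 59.1 elsewhere, so that the intron share of Mars was 26.5% in library 23 and 40.3% to 47.0% in the others. Ddit3, whose transcript overlaps that of Mars by 68 bases on the opposite strand, had 15.7 to 25.8 CPM, and the use of strand in counting is not given in the sources used here.

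Tars was also set apart in library 23. It had 156, 176, 157, 147, 166 and 240.4 CPM in libraries 18 to 23, so that library 23 held 1.36 times the next level (ratio of highest to lowest 1.63, adjusted p = 4.53e-14). Without library 23 its range was 1.20-fold. Lars, the cytosolic leucine enzyme, had 69.1 CPM in library 23 and 41.0 to 51.9 CPM in the others (adjusted p = 3.20e-06). Eprs had 221, 192, 219, 245, 224 and 280.5 CPM in libraries 18 to 23, a ratio of 1.46 (adjusted p = 3.53e-13).

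Of the 4 genes with the TTGCATCA element, Aars, Tars and Yars had their highest level in library 23, and Iars in library 22. Among all 20 cytosolic members 10 were highest in library 23, against 22.1% of all tested genes. Aars, Tars and Yars passed the test and Iars did not, where 17 of 20 cytosolic members and 71.6% of all tested genes passed. Aars had 64.0, 70.5, 67.1, 64.0, 59.1 and 82.2 CPM in libraries 18 to 23 (adjusted p = 0.0174), although only 82.7% to 90.6% of its reads were uniquely placed, where every other member but Lars2 had 100%. Yars had 28.1, 32.6, 28.5, 37.4, 29.2 and 41.7 CPM (adjusted p = 0.0357). Iars had 63.1, 64.2, 60.0, 51.9, 67.0 and 65.9 CPM. The letters were not in the windows of Mars and Eprs, and Lars had no promoter entry.

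Among the most read cytosolic members, ranges were narrow. Vars, for valine, had 231, 253, 215, 216, 265 and 237 CPM in libraries 18 to 23, a ratio of 1.23 (adjusted p = 6.83e-07). Qars, for glutamine, had 118, 138, 116, 119, 124 and 129 CPM, a ratio of 1.19 (adjusted p = 0.00136). Nars had 121, 106, 111, 135, 119 and 122 CPM, a ratio of 1.27 (adjusted p = 0.0131). Kars, which serves both compartments, had 102 CPM at its lowest, in library 19, and 140 at its highest, in library 18. Such spreads pass the test because these genes have many reads. Wars ran from 110 to 145 CPM, Sars from 99.1 to 124 CPM, Dars from 67.6 to 89.4 CPM and Gars from 69.0 to 88.6 CPM. At lower levels, Rars ran from 29.8 to 44.9 CPM, Hars from 26.5 to 43.2 CPM, Farsa from 23.3 to 36.4 CPM, Farsb from 46.5 to 54.8 CPM and Cars from 17.8 to 26.4 CPM.

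Mitochondrial enzymes other than Lars2 summed to 312, 329, 304, 637, 300 and 328 CPM in libraries 18 to 23. Library 21, the shallowest, was thus 2.13 times the lowest. The difference lay in Mars2 and Yars2: without these genes the sum ran from 267 to 294 CPM, a ratio of 1.10, and library 21 held 287 CPM (95% interval 252 to 326).

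Yars2, the mitochondrial tyrosine enzyme, had the widest range of all members (chromosome 16, 16302965 to 16309640, plus strand, ENSMUSG00000022792). Its levels were 6.87, 9.89, 10.5, 190.7, 9.23 and 14.2 CPM in libraries 18 to 23. These rest on 57, 105, 58, 158, 50 and 27 exon reads. Library 21 held 13.4 times the next level and 27.8 times the lowest (95% interval 20.4 to 38.3), and without it the range was 2.07-fold. Junction reads of Yars2 were likewise highest in library 21, at 80.2 junction CPM against 9.86 to 22.4 elsewhere, and intron reads stood at 22.6 intron CPM against 2.28 to 7.0. The junction share of its exon reads was 22.2% in library 21 and 58.0% to 77.8% in the others. Dnm1l, the next gene downstream, had 110 to 139 CPM.

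Mars2, the mitochondrial methionine enzyme, had 26.1, 24.3, 26.2, 159.3, 20.5 and 21.1 CPM in libraries 18 to 23, from 217, 258, 144, 132, 111 and 40 reads. It lies on chromosome 1 at 55237177 to 55248470 on the plus strand (ENSMUSG00000046994) as a single exon of 11294 bases, so junction and intron reads cannot be set beside the exon reads. Library 21 was 6.08 times the next highest level and 7.77 times the lowest (95% interval 5.99 to 10.1, adjusted p = 3.04e-112). Without library 21 the range was 1.28-fold. In the same library the 13 mitochondrially encoded protein genes summed to 54378 CPM, against 32011 to 41964 CPM in the others. Its part in the levels of Mars2 and Yars2 was not tested.

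Of the remaining mitochondrial members Iars2 and Tars2 had the most reads. Iars2 had 76.1, 73.0, 74.4, 98.95, 68.7 and 102 CPM in libraries 18 to 23 (adjusted p = 1.16e-04), so that the deeper libraries lay below libraries 21 and 23. Tars2 had 48.8, 68.1, 48.4, 48.3, 49.8 and 52.7 CPM, with library 19 above the rest (adjusted p = 3.78e-08). Cars2 had 21.2, 26.3, 20.5, 10.9, 24.2 and 18.5 CPM, a ratio of 2.42 (95% interval 1.26 to 5.35) that rests on 9 reads at the low end, in library 21; without that library it was 1.42. Nars2 had 17.0, 13.7, 13.6, 12.1, 15.0 and 6.33 CPM, the last from 12 reads (ratio 2.69, 95% interval 1.49 to 5.32, adjusted p = 0.0288). Without library 23 the range of Nars2 was 1.41-fold. Library 21 was thus low for Cars2 and library 23 for Nars2. Vars2 had 30.2, 29.0, 27.5, 29.0, 33.0 and 26.9 CPM (adjusted p = 0.609) and Hars2 from 19.4 to 29.0 CPM (adjusted p = 0.428). Fars2 ran from 7.38 to 15.7 CPM, a ratio of 2.12 whose interval, 1.04 to 4.05, was wide (adjusted p = 0.202). Sars2 (9.76 to 15.7 CPM, adjusted p = 0.0612), Rars2 (7.24 to 14.2 CPM, 0.0933), Ears2 (6.33 to 10.4 CPM, 0.549) and Wars2 (9.65 to 14.6 CPM, 0.638) also missed the threshold. Aars2 had 2.40 to 4.22 CPM and Pars2 1.21 to 6.12 CPM, both outside the test.

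Intron reads gave a second view, as the share of a gene's exon and intron reads that fell on introns. The pooled share had a median of 35.8% for cytosolic members, 42.1% for the mitochondrial members without Lars2 and 39.1% over all tested genes. Among cytosolic members it ran from 4.96% for Qars to 66.2% for Farsb. Mitochondrial members lay further apart: Vars2 had 7.75%, while Rars2 had 84.8%, Nars2 86.8%, Wars2 90.0% and Fars2 98.2%. Reads on introns outnumbered those on exons for these 4 genes, and also for Aars2, Ears2, Cars2 and the cytosolic Farsb, Iars, Lars and Rars. Intron reads do not enter the levels given above. The share differed between libraries beyond counting error for 26 of 31 members with enough reads, 19 of 20 cytosolic and 7 of 11 mitochondrial (chi-square test of intron against exon reads, adjusted over 7237 genes). Over all genes tested 74.7% passed.

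Genes that work beside the synthetases were read from further lists, whose counts stand against the 71.6% of all genes that passed the test of exon reads. Of the scaffold proteins of the multisynthetase complex, Aimp1 passed the test, with 57.8 (library 20) to 81.4 CPM (library 18), and Aimp2 and Eef1e1 did not. All 5 genes of cytosolic elongation passed; they deliver charged tRNA to the ribosome or move it on, and summed to 14491 to 17441 CPM, with Eef1a1 at 12281 to 14910 CPM. Of 7 genes of mitochondrial initiation, elongation and release 6 passed, with a sum of 278 to 324 CPM. Of 8 tested genes that process, ligate or export tRNA 5 passed, led by Ssb, which binds the ends of new tRNAs, at 214 to 254 CPM. In mitochondria glutamine tRNA is charged by transamidation and initiator methionine is formylated, and 3 of the 4 genes for these steps passed, with Mtfmt, the formyltransferase, at 38.6 to 69.6 CPM. Of 4 tested genes of selenocysteine tRNA and its use, which Gpx4 needs, 3 passed. Secisbp2, which reads the selenocysteine signal in messenger RNAs, was the exception, with 77.8 to 89.3 CPM and an adjusted p of 0.734. Of 5 tested synthetase-like genes 4 passed, led by Dtd1, a proofreading deacylase, at 23.3 to 43.8 CPM. Tarsl2, a second cytosolic threonine enzyme with too few reads for the test, had 17.4 CPM in library 23 and 3.32 to 8.45 CPM in the others.

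The genes of the amino acid response summed to 415, 362, 434, 425, 489 and 554 CPM in libraries 18 to 23. Library 23 was highest here too, and 5 of 7 tested members passed, against 71.6% of all genes. The sums rest mainly on Atf4 and Gcn1l1. Asns (0 to 5.27 CPM), Trib3 (0 to 0.554 CPM) and Chac1 (0 to 0.241 CPM) were among those with too few reads for the test. Atf4 itself had 123, 114, 167, 123, 197.5 and 205.6 CPM, so that libraries 20, 22 and 23 lay above the rest. Gcn1l1, which activates GCN2, had 105 (library 18) to 148 CPM (library 23). Psat1 and Phgdh, enzymes of serine synthesis, were highest in library 23 at 35.3 and 60.1 CPM, whereas Shmt2, which makes glycine from serine in mitochondria, was highest in library 21 at 43.4 CPM and had 32.2 CPM in library 23. The kinase gene Eif2ak4 (25.1 to 32.6 CPM, adjusted p = 0.212) and Ddit3 (adjusted p = 0.0782) missed the threshold.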

How the data were processed

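RNA of sorted splenic iNKT cells was isolated (NucleoSpin RNA XS Micro kit) and sequenced from QIAseq UPXome libraries, per the labels' protocols. The submitters' processing notes name the builds GRCm38 and mm10. The sources used here do not name aligner, counter, annotation release, strand or use of molecular identifiers. The deposited counts are whole exon reads per gene, not normalized, per the file headers. The deposited fraction is intron reads over all reads of the gene, the deposited ratio is unique over all exon reads, and the deposited RPKM values were scaled by the authors to exon length and mapped reads. Numbers of junction and intron reads were read from the same table. A further 8 columns of values were not used, and 17044 genes have no exons in the table, so that their reads are listed as intron reads.

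CPM used TMM factors (0.917 to 1.05; edgeR 4.0.16, R 4.3.3, 9510 genes). Chi-square tests (scipy 1.17.1; at least 200 reads, and expectations of at least 5 for intron shares) were adjusted by the Benjamini-Hochberg method, threshold 0.05, and tested on simulated data. Intervals are 95% exact Poisson or Clopper-Pearson intervals. They, and limits from a count of 0 (3 reads), cover counting error only, since copies made by PCR are not independent molecules. Ratios of highest to lowest library are picked extremes and widen as reads become few. Libraries matched no label, so values have no SD and edgeR's comparison of the genotypes was not run. Alternatives were DESeq2 1.42.0 size factors, plain or reduced totals, other minimum reads, unique reads, RPKM and leaving out each library. Members and gene lists were chosen with earlier results of these data known. Every member is given by value or range; values in all libraries are given for the 5 cytosolic and 5 mitochondrial genes with the highest median CPM, the 5 with the widest ratio among those tested and the genes with the element; of other lists, the most read genes. Transcript matches used BLAST 2.17.0 and GENCODE vM21, and promoters RefSeq GRCm38.p6.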

Additional observations from a re-analysis of the deposited data

Results flagged for a closer look

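A value was singled out where 1 library stood apart from the other 5 by more than 0.625 of the whole range over the 6 libraries (Dixon's 95% limit). The libraries are not replicates of 1 group, and chance alone picks about 1 in 20 values. In library 23 these were Mars at 200.3 CPM, with a gap of 0.878 of the range, Tars at 240.4 CPM, with 0.686, and the cytosolic sum at 2172 CPM, with 0.731. In library 21 they were Yars2 at 190.7 CPM, with a gap of 0.960, Mars2 at 159.3 CPM, with 0.959, Hars2 at 29.0 CPM, with 0.697, and the mitochondrial sum without Lars2 at 637 CPM, with 0.915. Hars2 rests on 24 reads in that library, and its exon reads did not differ between libraries beyond counting error (adjusted p = 0.428). In library 19 it was Tars2 at 68.1 CPM, with a gap of 0.775.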

How the results depend on the processing

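The count of members whose exon reads differed between libraries was 24 of 34 under DESeq2 size factors, reduced totals and unique reads. It was 24 of 36 with lower read minimums, where 69.3% (50 reads) and 53.9% (1 read) of all genes tested passed. With plain totals it was 21 of 34, where 73.5% of all genes tested passed. Leaving out 1 library gave 17 of 33 (without library 19, against 61.2% of all genes tested) to 24 of 34. The members' share lay below that of all genes tested in most settings, among them a minimum of 50 reads, plain totals and leaving out library 19. Without library 23 it was 19 of 34 against 65.2%, and without library 18 it was 20 of 34 against 63.2%. With a minimum of 1 read it lay above, as it did without library 20 or library 22 (24 of 34, against 66.2%). The count for intron shares was 26 of 31 with a lower minimum, against 74.7% of all genes tested. Leaving out 1 library gave 20 of 31 (without library 19, against 63.8%) to 27 of 33 (without library 21, against 66.7%). The Lars2 ratio was 1.62 under DESeq2 size factors, 1.69 with plain totals, 1.77 in RPKM and 1.32 (without library 23) to 1.61 leaving out 1 library. The cytosolic ratio was 1.41 in RPKM, 1.07 (without library 23) to 1.26 leaving out 1 library, and 1.19 without Mars. The mitochondrial ratio without Lars2 was 2.40 in RPKM, 1.09 (without library 21) to 2.13 leaving out 1 library, and 1.10 without Mars2 and Yars2; the exclusions of genes were chosen after seeing the data. RPKM divides by mapped reads, of which exon reads were 40.9% to 49.1%; apart from that and from leaving out data, the cause was not tested. For 13 single members given in all libraries other than Lars2, 12 alternative values moved beyond the counting interval and 131 did not. The single levels of Aars, Iars and Yars, given because of the element, were not put through these alternatives. Which library stood at an end depended on the scaling for close values: with plain totals Nars was highest in library 18, not 21, and Vars in library 19, not 22. No paired analysis was possible because 0 of the 6 libraries matched a label or its replicate number. Depth limits library 21 most, where 0 reads allow 3.62 CPM.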
